A study of Rattus norvegicus with 18 samples.

Results

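The gene set described here consists of 10 genes that mark macrophages and other leukocytes, read as a measure of leukocyte RNA in cardiomyocyte cultures. The members are Ptprc, Csf1r, Cd14, Mrc1, Cd163, Cd68, Lyz2, Srgn, Aif1 and Plek. They were chosen by name as markers, with earlier results of these data known. All 10 were found among the 19880 genes of the deposited table.

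The cells were neonatal rat ventricular cardiomyocytes, a primary culture from the ventricles of Sprague-Dawley rats at postnatal day 2. After enzymatic dissociation the cells were left to attach for 1 h to remove non-cardiomyocytes, and the cells that did not attach were cultured. Every culture had received 20 µM phenylephrine for 24 h, which activates alpha-1 adrenergic receptors and makes cardiomyocytes enlarge, so no group lacks it. The cells carried an adenovirus with 1 of 3 short open reading frames, named sORF6, sORF7 and sORF8 in the labels, or the control virus of that experiment. The 6 groups, sORF6 virus, sORF6 control, sORF7 virus, sORF7 control, sORF8 virus and sORF8 control, had 3 libraries each. The labels do not say whether these came from separate cultures. P-values therefore cover only the variation among libraries of the same group, pooled over the 6 groups, and this may be technical.

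Macrophages are the main resident leukocytes of the heart, and many are seeded there before birth. Their survival depends on CSF1R, the receptor for the growth factors CSF1 and IL-34, and their identity depends on PU.1 (Spi1), a transcription factor that binds purine-rich sites in myeloid promoters. CD14, integrins and Fc receptors are surface proteins that macrophages use to sense and take up microbes, and their genes can respond to inflammatory signals in cells that stay the same in number. In bulk RNA, a lower level can mean fewer cells of a type or less RNA of that gene per cell, and these cannot be told apart.

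Promoter windows from 250 bases before to 50 bases after the start of the gene were taken from RefSeq (build GRCr8) for 8 of the 10 members. Aif1 and Plek were not matched. The PU box, GAGGAA on either strand, occurred in 6 of the 8 windows and in 27.6% of 33469 rat promoter windows. The interferon-stimulated response element, searched as GAAANNGAAA on either strand, occurred in 1 of the 8 and in 3.92% of all windows. The NF-kB motif occurred in 0 of the 8 and in 7.51% of all. The promoters of Srgn (chr20:31000054-31000353, minus strand) and Lyz2 (chr7:54797962-54798261, minus strand) are shown because the responses of these 2 genes to sORF6 and sORF7 differed in opposite directions. Capitals mark the response element, which begins 248 bases before the Srgn start, and the PU box, which begins 46 bases before the Lyz2 start. The PU box also occurred in the windows of Cd68, Ptprc, Mrc1, Cd14 and Csf1r, and Cd14 differed in the direction of Srgn. A match describes the letters and does not show that a factor binds there.

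Srgn: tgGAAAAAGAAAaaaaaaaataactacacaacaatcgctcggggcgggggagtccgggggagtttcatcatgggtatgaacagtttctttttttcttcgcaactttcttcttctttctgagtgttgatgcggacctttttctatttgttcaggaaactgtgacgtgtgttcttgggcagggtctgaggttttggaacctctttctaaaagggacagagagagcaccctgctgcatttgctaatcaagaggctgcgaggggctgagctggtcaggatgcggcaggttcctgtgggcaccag

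Lyz2: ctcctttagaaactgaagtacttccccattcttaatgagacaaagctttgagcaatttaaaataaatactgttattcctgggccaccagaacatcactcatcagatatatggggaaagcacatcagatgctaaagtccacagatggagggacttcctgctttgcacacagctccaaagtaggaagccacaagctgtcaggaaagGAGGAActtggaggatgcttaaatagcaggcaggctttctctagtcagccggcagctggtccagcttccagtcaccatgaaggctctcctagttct

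Libraries held 15697177 to 17658137 estimated counts, and 14870 genes passed the filter on low counts. Over 12512 expressed genes, 4 of the 18 libraries lay nearer on average to another group than to their own. sORF6 control replicates 1 and 2 lay nearer to the sORF7 controls, sORF7 control replicate 1 nearer to the sORF6 controls, and sORF8 control replicate 1 nearer to the sORF8 virus libraries. The labels give no way to check whether libraries were exchanged, and an exchange was not tested. After the distances were seen, sORF6 control replicate 2 and sORF7 control replicate 1 were left out together, and sORF6 control replicate 1 was kept. The number of genes called between the sORF7 and sORF6 controls then moved from 1 to 980. A choice of this kind by itself favours more calls between these groups. Results that change without the 2 libraries left out are given with and without them.

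Macrophage transcripts were present at low levels in all 18 libraries. In FPKM, a level per transcript length, Lyz2 was the highest member, with a mean of 25.4 ± 5.57 (SD over 18 libraries). It was followed by Cd68 (5.86 ± 0.754), Cd14 (4.88 ± 1.02), Aif1 (4.31 ± 0.807), Csf1r (2.89 ± 0.625), Plek (2.44 ± 0.900), Srgn (1.604 ± 0.699), Ptprc (1.51 ± 0.193) and Mrc1 (0.852 ± 0.249), also in FPKM. From Cd68 down to Ptprc, each member and the next in this order differed by less than the sum of their SDs. Lyz2 stood above Cd68 in every library, and Mrc1 lay below Ptprc by more than the sum of their SDs. Cd163 was nearly undetected, at a mean of 0.0294 FPKM. The summed FPKM of the 10 members was 0.140% to 0.236% of that of 10 cardiomyocyte markers and 2.46% to 3.72% of that of 10 fibroblast markers. The same sum was 1.77% to 3.06% of that of 10 smooth muscle and pericyte markers, but 255% to 396% of that of 10 endothelial markers. Lyz2 alone made up 37.5% to 63.1% of the member sum, so the sum mostly follows this gene.

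**Figure D1:**
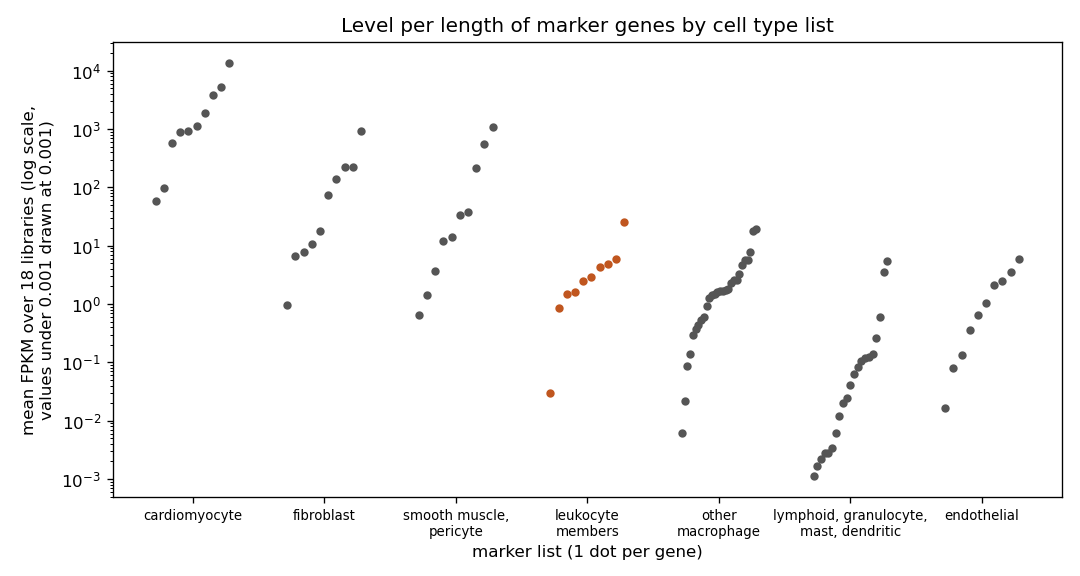
Mean FPKM over 18 libraries (log axis) of each gene in 7 marker lists, with 1 dot per gene. The 10 leukocyte members (orange) lie from 0.0294 to 25.4 FPKM, below most cardiomyocyte markers, and most lymphoid, granulocyte and mast cell genes lie lower still.

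Other macrophage genes were read beside the members, and their levels were uneven. Of 30 further names, 28 were in the table and 23 passed the filter. The other 5 failed it, and 4 of the 28 had under 50 counts in all libraries together. The highest were Adgre1, which encodes the macrophage surface protein F4/80 (19.6 FPKM), and Fcer1g and Tyrobp, adaptors of Fc and related receptors (17.9 and 7.70 FPKM). Spi1, the gene of PU.1, had 2.62 FPKM. Defining markers of other leukocytes were nearly absent. Of 21 genes for lymphocytes, granulocytes, mast cells and dendritic cells in the table, 17 failed the filter, with 1 to 51 counts each over all 18 libraries and at most 7 in any library. Among these were Ms4a1 of B cells, Cd3g of T cells, and Mpo and S100a8 of granulocytes. The 4 that passed were Kit (5.47 FPKM), Cd4 (3.51 FPKM), Itgax (0.611 FPKM) and Cd8a (0.265 FPKM), and in rats macrophages can carry CD4 as well. Among markers of tissue-resident macrophages, Folr2 had 1.62 FPKM and Lyve1 0.380 FPKM, while Timd4 had 3 counts and Cx3cr1 9 counts in all libraries together.

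The sORF6 experiment asked which genes this virus changed relative to its own control virus. Plek and Srgn fell to less than their control levels in every virus library, while Csf1r and Lyz2 did not fall. Of the 9 members tested, 2 passed, both lower, against a background of 3.85% of all 14870 genes (2.88% lower). The median log2 fold change of the 9 was -0.39, against 0.00 for all genes. All 3 virus libraries lay outside the range of the controls for 7 of 9 members, 5 below and 2 above, against 20.6% of all genes.

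Plek encodes pleckstrin, a substrate of protein kinase C in platelets and leukocytes (gene 364206, chromosome 14, 100151518 to 100184192, minus strand, Rnor_6.0). It had 4.60, 2.84 and 3.30 normalised CPM in the controls and 1.396, 1.75 and 1.79 with sORF6. The groups did not overlap. Its log2 fold change was -1.12 ± 0.19 (SE; edgeR adjusted p = 0.00117), and it stayed below the threshold without any single library. Srgn encodes serglycin, the proteoglycan core of leukocyte granules (gene 56782, chromosome 20, 32120317 to 32158071, minus strand). Srgn had 1.73, 2.09 and 1.42 normalised CPM in the controls and 0.873, 0.642 and 0.866 with sORF6, from 11 to 15 counts per virus library. Its log2 fold change was -1.13 ± 0.24 (edgeR adjusted p = 0.00802). The call ended without virus replicate 2 (adjusted p = 0.0515). Srgn counts were not whole numbers in any of the 18 libraries, so part of its reads was shared with other transcripts and its level is less certain.

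The other members did not pass with sORF6. Cd14, the lipopolysaccharide co-receptor (gene 60350, chromosome 18, 29530042 to 29562290, minus strand), had 6.27, 7.82 and 8.66 normalised CPM in the controls and 4.42, 5.96 and 5.71 with the virus. Cd14 counts were not whole numbers in 17 of the libraries, which marks reads shared with other transcripts and makes its level, too, less certain. Its groups did not overlap, and the log2 fold change of -0.50 ± 0.15 had an edgeR adjusted p of 0.0845. Without control replicate 1, one of the libraries that lay nearer to the sORF7 controls, it passed (-0.62, adjusted p = 0.0403). Aif1, the calcium-binding protein IBA1 of macrophages and microglia (gene 29427, chromosome 20, 5161350 to 5167176, minus strand), had a log2 fold change of -0.54 ± 0.19 (edgeR adjusted p = 0.146). Its virus libraries, at 1.98 to 2.60 normalised CPM, lay below the controls, at 2.73 to 3.77.

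Ptprc encodes CD45, the phosphatase carried by all nucleated leukocytes (gene 24699, chromosome 13, 55061561 to 55174165, minus strand). It had 9.09, 8.17 and 7.29 normalised CPM in the sORF6 controls and 7.27, 6.72 and 4.79 with the virus, and the 2 closest libraries nearly met. Its log2 fold change of -0.39 had a 95% interval from -0.68 to -0.10 and an edgeR adjusted p of 0.158. Cd68, a lysosomal glycoprotein of macrophages (gene 287435, chromosome 10, 56268726 to 56270605, minus strand), had 7.46 ± 1.39 normalised CPM in controls and 7.24 ± 0.258 with the virus (SD, n = 3 each), with overlapping groups. The interval of its log2 fold change ran from -0.33 to 0.25. Cd68 overlaps Mpdu1 on the same strand, which had a median of 28.2 FPKM, so reads of the pair may not be fully separated.

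Csf1r (gene 307403, chromosome 18, 56414493 to 56458300, plus strand) had 12.2, 12.7 and 11.3 normalised CPM in the sORF6 controls and 16.2, 13.7 and 14.4 with the virus. Every virus library lay above every control, but the log2 fold change of 0.29 ± 0.13 did not pass (edgeR adjusted p = 0.290). Lyz2, lysozyme, an antibacterial enzyme of myeloid cells (gene 25211, chromosome 7, 60335968 to 60341264, minus strand), had 36.8, 35.5 and 30.1 normalised CPM in the controls and 41.4, 41.6 and 37.2 with the virus. These groups did not overlap either, and its log2 fold change was 0.23 ± 0.09 (edgeR adjusted p = 0.232). Mrc1, the mannose receptor of tissue macrophages (gene 291327, chromosome 17, 81352689 to 81447986, plus strand), had 5.29 ± 0.392 and 6.32 ± 0.924 normalised CPM, with overlap (adjusted p = 0.589).

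**Figure D2:**
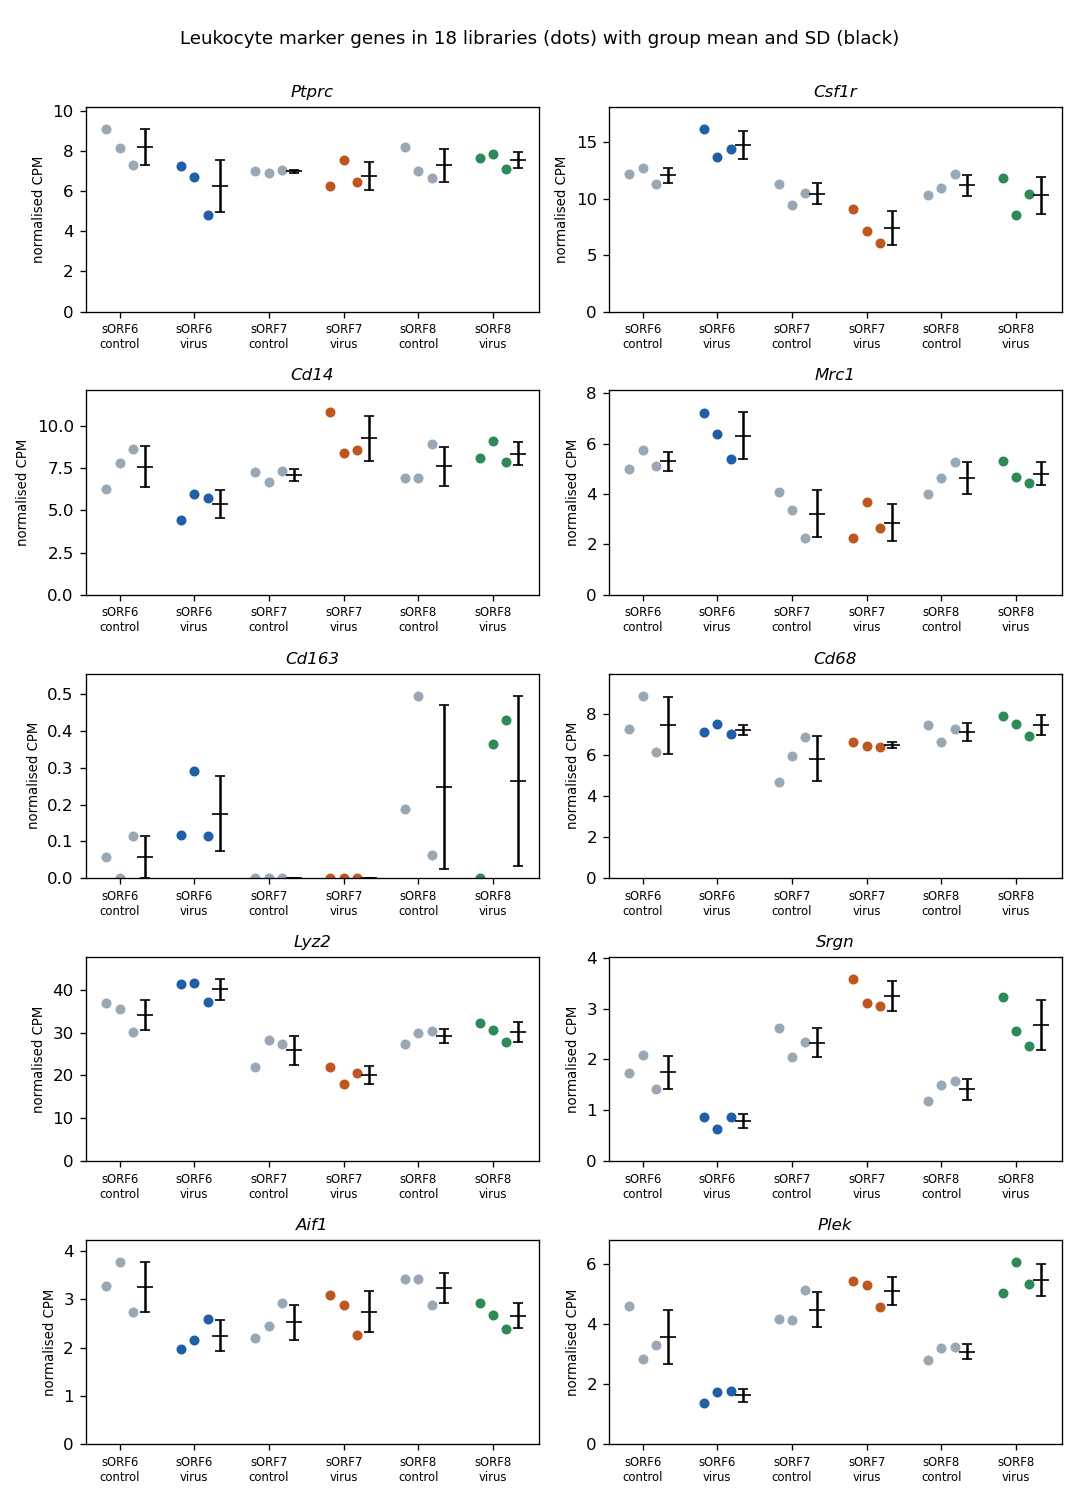
Normalised CPM of the 10 members in each of 18 libraries (coloured dots: virus, grey: control), with the group mean and SD (n = 3) in black. Plek and Srgn are lowest in the sORF6 virus libraries, and Csf1r, Lyz2 and Mrc1 have their highest mean there and their lowest in the sORF7 virus libraries.

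The median log2 fold change of the 23 further macrophage genes tested with sORF6 was -0.32, with 15 negative and 8 positive. Of these 23, 6 passed as lower and 0 as higher, against a background of 3.85% of all genes (2.88% lower). Integrin subunits were among the 6 that passed. Itgb2, the common leukocyte beta 2 chain, fell from 19.9 to 11.6 normalised CPM (log2 fold change -0.79 ± 0.10, edgeR adjusted p = 3.17e-05). Adgre1 fell from 74.7 to 48.8 normalised CPM (-0.61 ± 0.10, adjusted p = 0.000511). Lcp1, the actin-bundling protein L-plastin, fell from 17.3 to 11.97 normalised CPM (-0.53 ± 0.11, adjusted p = 0.00627). The other 3 were Itgam, Coro1a and Msr1, with log2 fold changes of -0.83, -1.07 and -0.61. Itgax, which encodes CD11c of dendritic cells and some macrophages, fell from 3.81 to 1.36 normalised CPM (-1.49 ± 0.27, adjusted p = 0.00222). Spi1 was at 4.20 and 2.38 normalised CPM and did not pass (-0.82 ± 0.24, adjusted p = 0.0648). The complement gene C1qa and the lipid receptor gene Trem2 had positive values, 1.64 ± 0.60 and 1.22 ± 0.38 on the log2 scale, from at most 19 and 22 counts in any library, and did not pass (adjusted p = 0.164 and 0.0958).

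A list of macrophage growth factors, chemoattractants and cytokines together with receptors had 13 genes tested, 6 of them secreted or membrane-bound factors and 7 receptors or co-receptors. With sORF6, 5 of the 13 fell and 0 rose, against 2.88% of all genes lower. Ccl2, the chemokine that recruits monocytes, fell from 58.0 to 17.3 normalised CPM (log2 fold change -1.75 ± 0.11, edgeR adjusted p = 2.19e-08). Csf1, the growth factor that binds CSF1R, fell from 164.9 to 123.5 normalised CPM (-0.42 ± 0.05, adjusted p = 1.51e-05). Cx3cl1, a membrane-bound chemokine, fell with a log2 fold change of -0.43 (adjusted p = 9.42e-06), and Lbp, which carries lipopolysaccharide to CD14, passed at -0.54. The fifth gene was a receptor, Ifngr1, the interferon gamma receptor chain, at -0.20. Csf1 had 41.8 FPKM on average, more than any leukocyte member.

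Markers of other cell types were also called with sORF6, some in a larger share than the 3.85% of all genes. Of 10 fibroblast markers, 1 rose (Col3a1) and 1 fell (Dcn), with a median log2 fold change of 0.05. The summed fibroblast FPKM was 1547 to 1683 in controls and 1691 to 1789 with the virus. Of 10 cardiomyocyte markers, 2 rose (Nppa and Myh7) and 1 fell (Myh6), with a median of 0.09, so their share called was not below that of the leukocyte members. By edgeR, endothelial markers had 0 of 8 called (1 at an unadjusted p under 0.05), and smooth muscle and pericyte markers 1 higher and 1 lower of 10. A list of erythroid and platelet markers, at 3.87 to 20.3 summed FPKM over all libraries, had 0 of 5 called by edgeR (3 at an unadjusted p under 0.05) and a median of -2.03. Those 5 were the globin genes Hba2, Hba-a1 and Hbb and the platelet genes Pf4 and Itga2b. Pf4, platelet factor 4, had 4.35 FPKM on average, and with sORF6 its log2 fold change was -0.41 ± 0.34 (edgeR adjusted p = 0.632). The part of these cell types in the leukocyte results was not tested.

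In the sORF7 experiment, Csf1r and Lyz2 fell relative to the control virus, whereas Plek and Srgn did not. Of the 9 members, 2 passed, both lower, against a background of 7.77% of all genes (3.66% lower). The members' median log2 fold change was 0.12 and that of all genes was 0.00. Groups did not overlap for 3 of 9 members (2 above, 1 below), against 23.1% of all genes.

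Csf1r had 11.3, 9.44 and 10.5 normalised CPM in the sORF7 controls and 9.08, 7.13 and 6.06 with the virus. All virus libraries were below all controls. Its log2 fold change was -0.49 ± 0.14 (edgeR adjusted p = 0.0353). The call ended in each of 4 fits that left out 1 library, without virus replicate 2 or 3 or without control replicate 1 or 3, with adjusted p up to 0.163. Without sORF7 control replicate 1 and sORF6 control replicate 2 together, the adjusted p of Csf1r was 0.128. Lyz2 had 21.9, 28.2 and 27.3 normalised CPM in the controls and 21.97, 17.9 and 20.5 with the virus. Control replicate 1, the library that lay nearer to the sORF6 controls, overlapped the virus group. The log2 fold change of Lyz2 was -0.36 ± 0.10 (edgeR adjusted p = 0.0362), and its call also ended in 4 such fits, without virus replicate 2 or 3 or control replicate 2 or 3, with adjusted p up to 0.167. Limma on log2(FPKM + 1) called neither gene, whereas DESeq2 called both (limma adjusted p = 0.0750 for Csf1r and 0.0579 for Lyz2). Lyz2 counts were not whole numbers in 16 libraries, which marks shared reads.

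Cd14 and Srgn had values above the controls in all sORF7 virus libraries without passing. Cd14 had 7.31, 6.70 and 7.33 normalised CPM in controls and 10.8, 8.43 and 8.61 with the virus, a log2 fold change of 0.38 ± 0.15 (edgeR adjusted p = 0.131). Srgn had 2.61, 2.04 and 2.35 normalised CPM in controls and 3.59, 3.11 and 3.06 with the virus, a log2 fold change of 0.48 ± 0.20 (adjusted p = 0.183). For the remaining 5 tested members the log2 fold changes lay between -0.17 (Mrc1) and 0.19 (Plek), with edgeR adjusted p of 0.602 or more. The 95% interval of Ptprc ran from -0.34 to 0.24 and that of Csf1r from -0.78 to -0.20. These intervals overlapped, and the difference between the genes was not tested.

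Of the 23 further macrophage genes 2 were called with sORF7, both higher, a share near the 7.77% of all genes. Msr1, the scavenger receptor A gene, rose from 4.86 to 7.54 normalised CPM with sORF7 (log2 fold change 0.63 ± 0.14, edgeR adjusted p = 0.00612), after a fall in the sORF6 comparison. Mpeg1, which encodes the pore-forming protein perforin-2, rose from 6.38 to 8.58 normalised CPM (0.43 ± 0.13, adjusted p = 0.0445). By edgeR none of the 23 was called lower, and the median was 0.09. Among the 13 macrophage factors and receptors, Ccl2 (0.66), Cx3cl1 (0.33) and Csf1 (0.31) rose on the log2 scale and 0 fell. Of the 10 fibroblast markers 3 fell, namely Pdgfra (-0.30), Col3a1 (-0.21) and Postn (-0.16), and of 10 cardiomyocyte markers 3 fell. Those markers moved in the same comparison as Csf1r and Lyz2, and their part in it was not tested.

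In the sORF8 experiment, Plek and Srgn rose and the other 7 tested members did not pass. The background was 3.75% of all genes, 2.03% higher. The members' median log2 fold change was 0.05, and 2 of 9 had groups that did not overlap, against 24.5% of all genes. Plek had 2.80, 3.23 and 3.26 normalised CPM in the controls and 5.05, 6.09 and 5.34 with the virus, with a log2 fold change of 0.83 ± 0.18 (edgeR adjusted p = 0.0104). Srgn had 1.18, 1.49 and 1.57 normalised CPM in the controls and 3.23, 2.56 and 2.27 with the virus, a log2 fold change of 0.92 ± 0.22 (edgeR adjusted p = 0.0211). In both genes every virus library exceeded every control.

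These 2 calls depended on single libraries. Without sORF8 control replicate 1, which lay nearer to the virus libraries than to the other controls, neither passed the edgeR test, with an adjusted p of 0.0579 for Plek and log2 fold changes of 0.76 for Plek and 0.81 for Srgn. Plek also lost its call without virus replicate 2 (0.0657), and Srgn without virus replicate 1 (0.117), virus replicate 2 (0.0576) or control replicate 2 (0.0562). Among members that did not pass, Lyz2 had the narrowest 95% interval, from -0.16 to 0.25 on the log2 scale, and that of Ptprc ran from -0.24 to 0.34. Of the further macrophage genes only Itgb2 passed, rising from 17.8 to 23.3 normalised CPM (0.39 ± 0.09, edgeR adjusted p = 0.0247). Of the macrophage factors and receptors 0 of 13 passed by edgeR, and 3 had an unadjusted p under 0.05. Cardiomyocyte markers were higher with sORF8 in 6 of 10, and their summed FPKM was 21914 to 22143 in the controls and 25870 to 25957 with the virus. Their part in the member results was not tested.

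**Figure D3:**
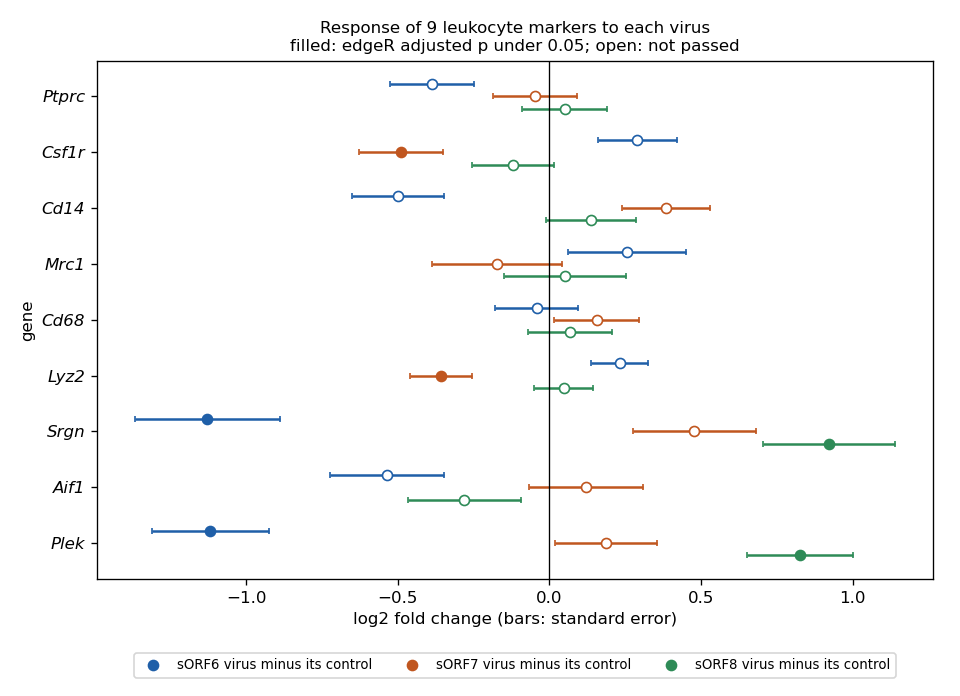
Log2 fold change of virus over its own control for the 9 tested members in the sORF6 (blue), sORF7 (orange) and sORF8 (green) experiments, with standard errors. Filled points passed an edgeR adjusted p under 0.05, and Srgn and Plek lie at -1.13 and -1.12 with sORF6 and at 0.92 and 0.83 with sORF8.

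Tests of the difference between 2 responses used separate controls for each. Between sORF6 and sORF7, 5 of 9 members differed, against a background of 11.2% of all genes (4.88% higher and 6.27% lower). Csf1r and Lyz2 had the higher response to sORF6, by 0.78 ± 0.19 and 0.59 ± 0.14 on the log2 scale (edgeR adjusted p = 0.0105 and 0.00844). Srgn, Plek and Cd14 had the lower response to sORF6, by differences of -1.61 ± 0.31, -1.31 ± 0.26 and -0.88 ± 0.21 (adjusted p = 0.00187, 0.00195 and 0.00925). The members thus differed in opposite directions in the same pair of experiments. Cd4, which rat macrophages share with T cells, differed in the direction of Csf1r (0.59 ± 0.15, adjusted p = 0.0156). Itgax differed in the opposite direction, that of Srgn, by -1.72 ± 0.37 (adjusted p = 0.00438).

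Between sORF6 and sORF8, 2 of 9 members differed, both lower, against 3.69% of all genes (2.82% lower). The response of Srgn was lower with sORF6 by a difference of -2.05 ± 0.32 (edgeR adjusted p = 0.000569) and that of Plek by -1.94 ± 0.26 (adjusted p = 0.000104). The same difference for Itgax was -1.69 ± 0.37 (adjusted p = 0.0118). Between sORF7 and sORF8, edgeR called 0 of 9 members, as did limma and DESeq2 for those they tested, and 2 of the 9 had an unadjusted edgeR p under 0.05. The background there, at an edgeR adjusted p under 0.05, was 7.72%. The members with the smallest adjusted p were Lyz2 (-0.40 ± 0.14, 0.0911) and Plek (-0.64 ± 0.24, 0.125). Every one of the 7 called differences stayed below the threshold in each of 18 fits that left out 1 library.

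Cd163, the haemoglobin scavenger receptor of resident macrophages (gene 312701, chromosome 4, 156752063 to 156785467, plus strand), failed the filter, with 37 counts in all libraries together. The 6 libraries of the sORF7 experiment held 0 counts, which allows up to 0.170 to 0.173 CPM per library. The sORF6 virus libraries held 2, 5 and 2 counts and their controls 1, 0 and 2. The sORF8 virus libraries held 0, 6 and 7 and their controls 3, 8 and 1. At this depth no difference between virus and control was detectable. Cd163 overlaps C1s on the opposite strand, which had a median of 32.1 FPKM, and the use of strand in counting is not stated in the labels or the table.

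Levels also differed between the 3 control groups, which carried control virus only. By the joint F test of edgeR, 3 of 9 members passed, against 38.4% of all genes, so the members were not above this background. Lyz2 had means of 34.1 ± 3.56, 25.8 ± 3.40 and 29.2 ± 1.61 normalised CPM in the sORF6, sORF7 and sORF8 controls (adjusted p = 0.00868). Mrc1 had 5.29 ± 0.392, 3.22 ± 0.923 and 4.63 ± 0.642 (adjusted p = 0.0243) and Srgn 1.75 ± 0.331, 2.33 ± 0.285 and 1.41 ± 0.204 (adjusted p = 0.0358), all in normalised CPM. Without sORF6 control replicate 2 and sORF7 control replicate 1, Mrc1 was the member that still passed. Srgn and Plek were lower in sORF8 than in sORF7 controls by -0.72 ± 0.22 and -0.54 ± 0.18 (edgeR adjusted p = 0.0137 and 0.0223), against a background of 37.7% (19.1% lower). Between the sORF8 and sORF6 controls edgeR called 0 of 9, against 38.4%, and between the sORF7 and sORF6 controls 0 of 9, against 0.00672%. At an unadjusted edgeR p under 0.05, 1 and 3 of the 9 passed in these 2 comparisons. The backgrounds above are at an adjusted p, so these counts cannot be set against them. Every virus response was therefore tested against the control of its own experiment.

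The order of the 6 group means, across experiments and with the control differences included, was not the same for all members. Among the 9 tested members, Srgn ranged most, from 0.794 with sORF6 to 3.25 with sORF7 (4.10 times, in mean normalised CPM), followed by Plek, from 1.65 with sORF6 to 5.49 with sORF8 (3.34 times). Csf1r, Lyz2 and Mrc1 all had their highest mean with sORF6 and their lowest with sORF7, at ratios of 1.99, 1.99 and 2.21. Cd68 and Ptprc varied least, with ratios of 1.28 and 1.31. The summed FPKM of the members did not follow Plek or Srgn: it was 48.8 to 57.6 in sORF6 controls and 52.1 to 55.8 with sORF6, 40.4 to 47.9 and 40.8 to 47.1 for sORF7, and 47.8 to 52.0 and 48.7 to 56.0 for sORF8. For this member sum, virus and control overlapped in each experiment. The summed FPKM of the 28 further macrophage genes did not overlap for sORF6. It was 84.1 to 102.0 in the sORF6 controls and 74.5 to 78.9 with the virus. That sum overlapped for sORF7 (79.8 to 91.1 in controls, 82.4 to 88.5 with the virus) and for sORF8 (83.8 to 96.7 and 87.1 to 106.2).

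**Figure D4:**
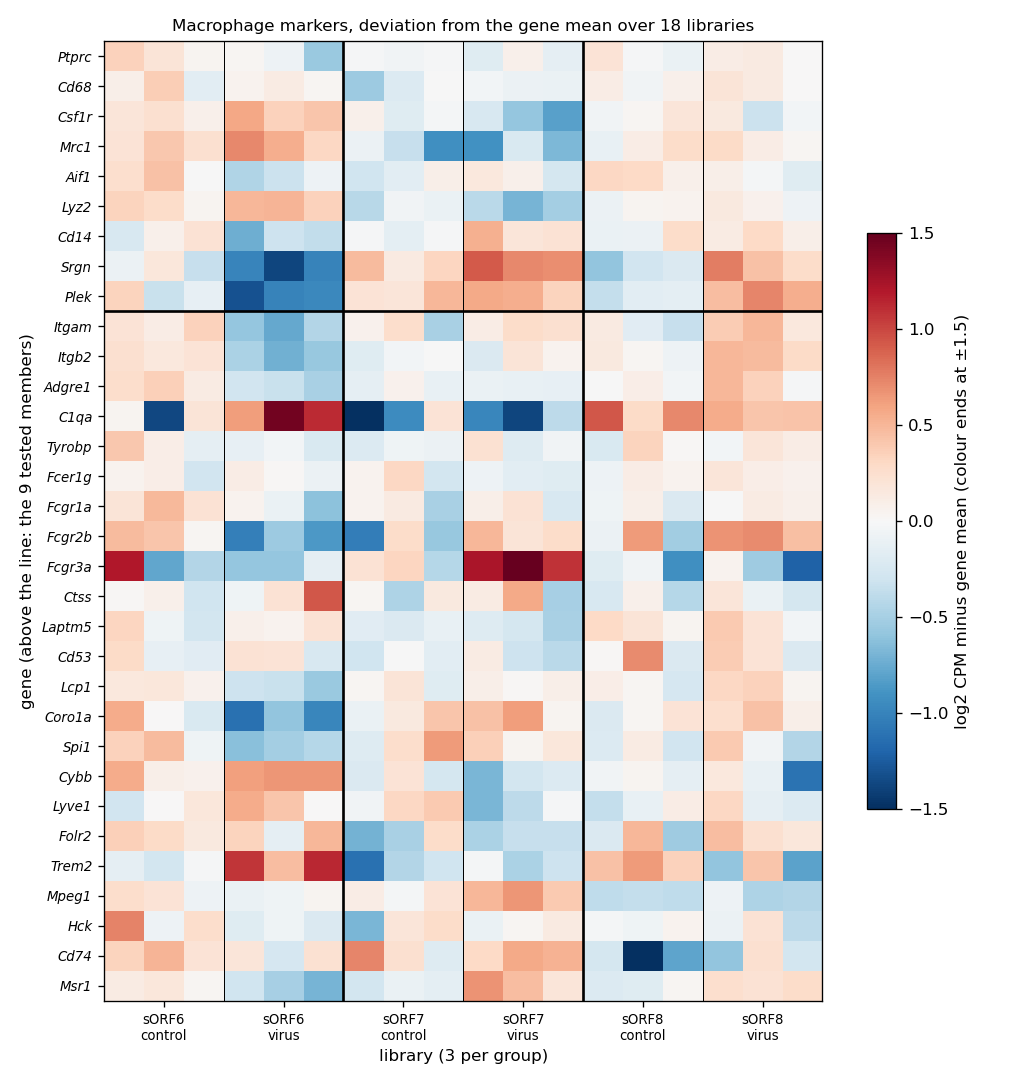
Deviation of log2 CPM from the gene's mean over 18 libraries (colour, ends at ±1.5) for the 9 tested members (above the line) and 23 other macrophage genes, with libraries in columns by group. In the sORF6 virus columns Srgn, Plek, Coro1a and Itgb2 are low while Csf1r, Mrc1 and Lyz2 are high.

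Likeness of pattern was described by Pearson's r of log2 CPM over the 18 libraries, among 12512 genes, without a test, since libraries of a group share their treatment. The 5 genes most like Csf1r were Postn (r = 0.92), a matrix protein of activated fibroblasts, Dlk1 (0.90), Cnot6 (0.89), Phf24 (0.89) and Zmat3 (0.89). Among members, Lyz2 (0.84) and Mrc1 (0.72) varied with Csf1r, and Plek (-0.71) and Cd14 (-0.65) against it. The 5 genes most like Cd14 were the chemokine genes Ccl7 (0.87) and Ccl2 (0.85), then Agpat5 (0.85), Olr1 (0.85), an oxidised lipoprotein receptor, and Htra1 (0.84). Plek varied with Cd14 at r = 0.75. Ptprc had r of -0.07 with Csf1r and 0.06 with Cd14.

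In the authors' deposited table, 7 of 10 members had a q-value under 0.05 for sORF6, 4 of 9 for sORF7 and 2 of 10 for sORF8. The share of all genes under this q-value is not given here, so the counts cannot be read as an excess among the members. The authors' deposited table gave sORF6 q-values of 1.11e-08 for Plek, 6.17e-05 for Cd14, 2.76e-05 for Lyz2 and 0.00157 for Ptprc, of which edgeR across replicates called Plek. The log2 fold change of Lyz2 in the authors' deposited table was 0.22 for sORF6. The within-group variance of counts, relative to the mean, was 4.06 for Lyz2, 2.57 for Csf1r, 2.25 for Cd14, 2.07 for Mrc1, 1.53 for Ptprc, 1.52 for Cd68, 1.34 for Plek, 0.892 for Aif1 and 0.748 for Srgn. These ratios were not tested against counting error.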

How the data were processed

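Per the labels, Trizol RNA of 18 samples was sequenced on a BGIseq machine. The authors deposited 1 table with estimated counts per gene, FPKM values, log2 fold changes and q-values in columns headed degseq. Per the submitters' processing notes, the tools include HISAT2 2.0.4, RSEM 1.2.12 and DESeq2 1.4.5, with build Rnor_6.0, and no roles are given. The authors' FPKM values, scaled to transcript length and library total, were used for levels. The authors' q-values and deposited log2 fold changes are cited with that source and support no call.

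Estimated counts were rounded and tested with edgeR 4.0.16 (quasi-likelihood, TMM scaling, filterByExpr with 6 groups, 1 mean per group over all 18 libraries, 12 residual degrees of freedom) in R 4.3.3. Limma 3.58.1 and DESeq2 1.42.0 served as alternatives. P-values are two-sided, adjusted by the Benjamini-Hochberg method over 14870 genes and called under 0.05. Counts of genes at an unadjusted p under 0.05 are given without the share of all genes and cannot be read as an excess. Normalised CPM were computed with the TMM-adjusted library size. Errors (±) are standard errors for log2 fold changes and, for levels, the SD over 3 libraries unless another number is given.

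The members and all gene lists were chosen with earlier results of these data known. Besides the members, up to 3 called genes per direction with the smallest adjusted p and the 3 highest by FPKM were named from the lists of macrophage markers, other leukocytes and macrophage factors with their receptors, and the 5 most like Csf1r and Cd14 among genes whose mean log2 CPM was 1 or more. Other genes named were chosen after their values were seen. In simulated data on 14870 genes, edgeR recovered 68% of genes changed 1.5-fold and 70% of those changed 2-fold for sORF6, 64% and 80% for sORF7, and 66% and 90% for sORF8. Of genes changed 1.25-fold, edgeR recovered 36%, 50% and 48% for sORF6, sORF7 and sORF8. The changed genes were drawn at random from all tested genes, not at the counts of the members. Depth was 15697177 to 17658137 counts per library, and floors cover counting error only. Gene positions come from the table and promoter sequences from RefSeq. No genome sequence was used.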

Additional observations from a re-analysis of the deposited data

Results flagged for a closer look

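In 7 cases the response of a member to the sORF6 virus differed from its response to another virus by an edgeR test of the difference itself (Benjamini-Hochberg adjusted p under 0.05). Against sORF7, the difference of log2 fold changes was 0.78 for Csf1r (adjusted p = 0.0105), 0.59 for Lyz2 (0.00844), -0.88 for Cd14 (0.00925), -1.61 for Srgn (0.00187) and -1.31 for Plek (0.00195). Against sORF8 it was -2.05 for Srgn (0.000569) and -1.94 for Plek (0.000104). Over the 18 fits that each left out 1 library, the highest adjusted p of any of these was that of Csf1r, 0.0338. No group is large enough for a test of single outlying libraries.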

How the results depend on the processing

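Under RLE size factors, no filter on low counts and the replicate block, each comparison kept its number of called members within 1.5 times. With only the groups compared in the fit, 1 member was called for sORF6 (Plek, with Srgn at an adjusted p of 0.0817) and 0 for sORF7. Limma with either pseudocount called 0 for sORF7, and called Cd14 for sORF6 at a pseudocount of 0.1 (adjusted p = 0.0475). DESeq2 called 0 for sORF8 because it gave Srgn and Plek no adjusted p. Without sORF6 control replicate 2 and sORF7 control replicate 1 together, a choice made after seeing the data, 1 member was called for sORF7 (Lyz2), 1 for the 3 control groups (Mrc1) and 1 for sORF7 minus sORF8 (Lyz2), and the log2 fold changes of Cd68 with sORF6 and Mrc1 with sORF7 turned to 0.11 and 0.035. The cause was not tested.

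Leaving out 1 library at a time gave 1 to 3 called members for sORF6, 0 to 2 for sORF7, 0 to 2 for sORF8, 2 to 4 for the controls, 5 to 5 for sORF6 minus sORF7, 2 to 2 for sORF6 minus sORF8 and 0 to 1 for sORF7 minus sORF8. Uncalled log2 fold changes that crossed 0 were Ptprc with sORF7 (-0.13 to 0.0020) and sORF8 (-0.012 to 0.14), Cd68 with sORF6 (-0.16 to 0.11), Mrc1 with sORF7 (-0.39 to 0.035) and sORF8 (-0.047 to 0.15) and Lyz2 with sORF8 (-0.0060 to 0.10).

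Same-numbered libraries correlated at -0.02 to 0.18, and 6 of 9 virus libraries correlated best with the control of their own number. Whether same-numbered libraries share more than a number was not tested. With the replicate block, members called were 2, 2 and 2 for sORF6, sORF7 and sORF8, 3 for the controls, and 5, 2 and 0 for the differences, while genes called were 534, 1100 and 542, against 572, 1156 and 558 without it. With only the groups compared these were 335, 689 and 865, and without the 2 control libraries 988 for sORF8 and 980 in place of 1 between sORF7 and sORF6 controls. Srgn, Aif1 and Plek had at most 100 counts in a library, and Cd163 at most 8, which limits what could be detected.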
